A study of Mus musculus with 4 samples.

Results

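The Ikaros family comprises the zinc finger transcription factor genes *Ikzf1* (Ikaros), *Ikzf2* (Helios), *Ikzf3* (Aiolos), *Ikzf4* (Eos) and *Ikzf5* (Pegasus). The members were taken by gene symbol, with no use of their measured values, and were 5 of the 55367 symbols in the count tables. All 5 were among the 12403 genes with enough reads to be tested. Bulk RNA-seq was carried out on CD4+ T cells isolated from the spleen in C57BL/6 mice, with 2 wild-type (WT) libraries and 2 libraries labelled as conditional knockout (cKO) for *Satb1*, a genome organizer of T cells. The comparison asked how the transcriptome of mature peripheral CD4+ T cells differs when *Satb1* is deleted.

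In the study, *Satb1* F/F mice carry *Satb1* alleles flanked by loxP sites, and *Thpok-cre* deletes them once thymocytes have committed to the CD4 lineage. The deletion therefore precedes *Foxp3* expression and covers conventional CD4+ T cells and regulatory T cells (Tregs) together. The series also names *E8I-cre*, a driver used for CD8+ T cells, and the sample labels do not say which Cre each library carries. No treatment was applied. The labels give neither the age nor the sex of the mice, and the study describes its animals as young adults of mixed sexes. Each library holds the CD4+ population as a whole, with no separation of Tregs from conventional cells. The paper describes its RNA-seq populations of CD4+ T cells as sorted. Its methods also give magnetic enrichment of T cells before sorting.

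Ikaros family factors bind DNA through zinc fingers near the N terminus and pair with themselves or each other through fingers at the C terminus. Ikaros is required for lymphocyte development and works largely with the NuRD chromatin remodeling complex, whereas Aiolos is found in B cells and in activated and memory T cells. Helios and Eos are known from Tregs, where Eos acts with FoxP3 and the corepressor CtBP in gene repression. Pegasus is the most divergent member.

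The DNA-binding finger that best shows how close the members are is printed below, as the coding-strand sequence of GENCODE M21 on GRCm38, read 5′ to 3′. Capitals mark the codons of the cysteine pair and the histidine pair that hold the zinc ion. The *Ikzf1* finger lies at chr11:11754024-11754086 on the plus strand, and the others lie on the minus strand at chr1:69570581-69570643 for *Ikzf2*, chr11:98488940-98489002 for *Ikzf3*, chr10:128640229-128640291 for *Ikzf4* and chr7:131393759-131393821 for *Ikzf5*. Each one lies within a single coding exon.
Ikzf1: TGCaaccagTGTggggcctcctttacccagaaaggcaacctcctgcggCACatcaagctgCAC
Ikzf2: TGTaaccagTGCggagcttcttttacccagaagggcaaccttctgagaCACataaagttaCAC
Ikzf3: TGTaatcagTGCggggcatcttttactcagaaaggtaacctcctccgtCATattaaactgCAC
Ikzf4: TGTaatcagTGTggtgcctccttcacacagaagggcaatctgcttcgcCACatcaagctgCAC
Ikzf5: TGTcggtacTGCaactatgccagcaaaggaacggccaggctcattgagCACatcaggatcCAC

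Of the 63 bases of this finger, *Ikzf2* and *Ikzf3* shared 51 with *Ikzf1*, and *Ikzf4* shared 53. The best-matching finger in the N-terminal part of *Ikzf5* shared 29. Similar sequence can split reads between related genes, so the annotated transcripts were compared at the read length of 50 bases. No pair of members shared a 50-base word, and the longest run shared by any pair was 32 bases, between *Ikzf2* and *Ikzf4*. A read without mismatches therefore matched the transcripts of 1 member only.

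The libraries held 6555699 and 4495902 gene counts for WT 1 and WT 2 and 5372419 and 4628467 for cKO 1 and cKO 2. *Satb1* itself had 5677 and 4390 counts in WT and 4958 and 3986 in the libraries labelled cKO, a log2 fold change of −0.05 with an adjusted p of 0.877 by the edgeR quasi-likelihood test with Benjamini-Hochberg adjustment. The exons that the floxed allele loses are not given in the sources used here, and a gene-level count takes in exons left in place, so this count does not check the deletion. *Xist*, the X-inactivation RNA of female cells, had 5447 and 4235 counts in WT and 9 and 6 in cKO. The Y-linked *Ddx3y* had 0 in both WT libraries and 525 and 597 in cKO. The sex-linked pattern therefore split with the genotype label, and its part in any difference below cannot be told apart from that of the genotype. All 5 members lie on autosomes. The defining T cell transcripts *Cd4*, *Trac* and *Lck* were abundant in every library, and none of 10 T cell markers passed the test.

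By genotype, no member passed the test (0 of 5, beside 4.3% of all tested genes called at an adjusted p under 0.05). *Ikzf1* and *Ikzf4* were the members at an adjusted p under 0.1 (2 of 5, beside 7.78% of all tested genes) and at an unadjusted p under 0.05 (2 of 5, beside 19.1%). The DESeq2 Wald test called 1 member, *Ikzf1* (3.01% of its tested genes), and the edgeR exact test called 2, *Ikzf1* and *Ikzf4* (8.35%). In simulated counts of the same design, 200 genes drawn from all expression levels were changed. Of those with a true 1.5-fold difference 14.8% were recovered, and of those with a 2-fold difference 68.0%. In the data 533 genes were called, so these rates may not hold for the members. A missing call does not show that a difference is absent. The libraries of the genotypes did not overlap for 3 of the 5 members, beside 50.3% of all tested genes. *Ikzf1* was lower in cKO, *Ikzf4* and *Ikzf5* were higher, and *Ikzf2* and *Ikzf3* overlapped.

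**Figure D1:**
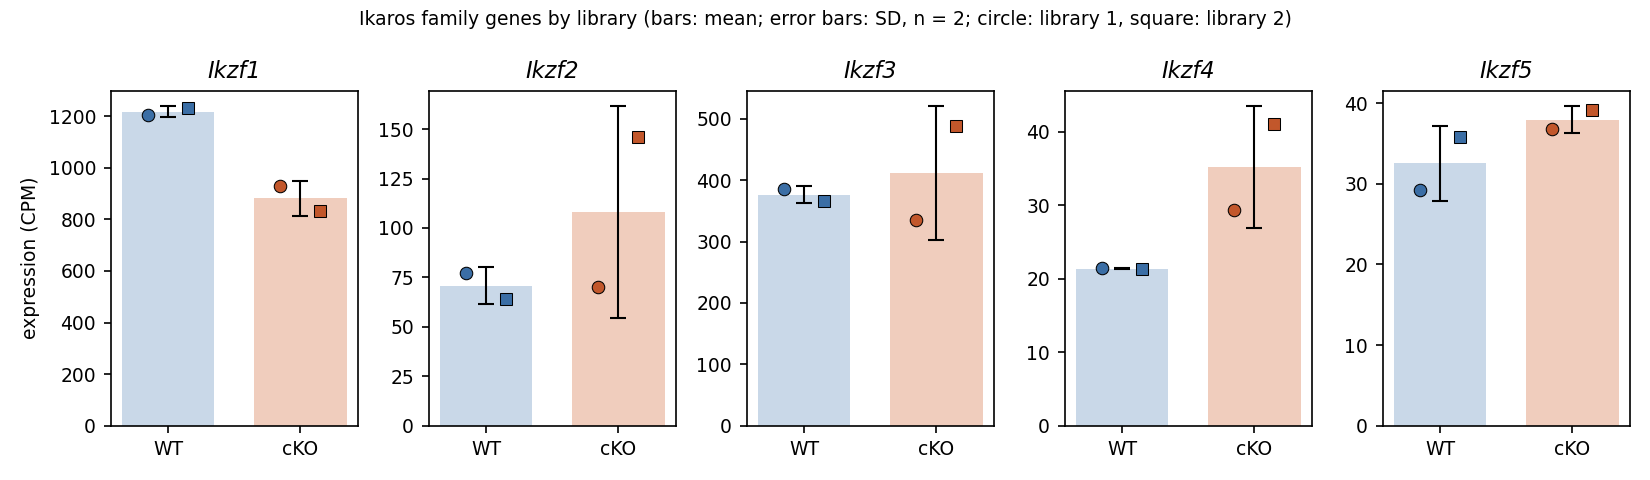
Expression of each Ikaros family gene in CPM (counts scaled to a total of 1000000), with a circle for library 1 and a square for library 2 of each genotype, bars for the mean and error bars for the SD (n = 2). *Ikzf1* was at 832 and 930 CPM in cKO, below both WT libraries, while *Ikzf2* stood at 146 CPM in cKO 2 and between 64.1 and 77.4 CPM in the other libraries.

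*Ikzf1* encodes Ikaros, the founding member and a regulator of lymphoid development and T cell activation thresholds. The gene (ENSMUSG00000018654.17) spans chromosome 11, 11685003 to 11772926, on the plus strand of GRCm38. Expression in CPM is the count scaled to a total of 1000000 on TMM-adjusted library sizes. *Ikzf1* stood at 1204 and 1232 CPM in the WT libraries, at 930 CPM in cKO 1 and at 832 CPM in cKO 2. Both cKO libraries were below both WT libraries. The WT libraries differed by no more than counting error, with a ratio of WT 2 to WT 1 of 1.02 (95% counting interval 0.988 to 1.06). The mean was 1218 ± 19.7 CPM in WT and 881 ± 69.5 CPM in cKO (SD, n = 2). The fitted fold was 0.72 with a 95% interval of 0.60 to 0.87, a log2 fold change of −0.47 with an SE of 0.12. The adjusted p was 0.0633 (unadjusted 0.00328) by the edgeR quasi-likelihood test with Benjamini-Hochberg adjustment, just outside the threshold. It passed without cKO 1 (adjusted p of 0.000152) and without cKO 2 (0.00143), and not without WT 1 (0.347) or WT 2 (0.510). The interval of the fold excluded 1, while the adjusted p over all genes did not pass. An exact permutation test of the libraries gave p = 0.333, the smallest that 2 against 2 allows.

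*Ikzf3* encodes Aiolos, which is closest to Ikaros in role and partners with it. The gene (ENSMUSG00000018168.8) lies on the minus strand of chromosome 11 from 98464902 to 98546031. The WT libraries had 386 and 367 CPM of *Ikzf3*, cKO 1 had 335 CPM and cKO 2 had 488 CPM. The cKO libraries held both the lowest and the highest value, on either side of WT. The ratio of cKO 2 to cKO 1 was 1.46 (95% counting interval 1.37 to 1.55), more than counting error, whereas that of WT 2 to WT 1 had an interval of 0.892 to 1.01. The fit gave a log2 fold change of 0.13 (SE 0.16), and its adjusted p was 0.729 by the edgeR quasi-likelihood test with Benjamini-Hochberg adjustment. Its sign depended on 1 library, since the value was −0.17 without cKO 2 and 0.37 without cKO 1, and the latter passed the test (adjusted p of 0.0042). The 95% interval of the fold, 0.85 to 1.41, allowed a difference in either direction.

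*Ikzf2* encodes Helios, which is high in thymus-derived Tregs and in some activated T cells. The gene (ENSMUSG00000025997.13) occupies the minus strand of chromosome 1, 69531214 to 69687245. The WT libraries had 77.4 and 64.1 CPM of *Ikzf2*, while cKO 1 had 70.3 CPM and cKO 2 had 146 CPM. The cKO 1 library lay between the WT libraries, and cKO 2 stood above all others. The ratio of cKO 2 to cKO 1 was 2.07 (95% counting interval 1.82 to 2.36), the widest gap between libraries of 1 genotype among the members. The mean was 70.7 ± 9.41 CPM in WT and 108 ± 53.4 CPM in cKO (SD, n = 2). The fitted difference was 0.60 on the log2 scale (SE 0.28), and the adjusted p was 0.291 by the edgeR quasi-likelihood test with Benjamini-Hochberg adjustment. Without cKO 2 the log2 fold change was −0.02, and without cKO 1 it was 1.03 with an adjusted p of 1.56e-05, so 1 library set both the direction and the size.

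*Ikzf4* encodes Eos, the FoxP3-associated repressor. The gene (ENSMUSG00000002578.17) occupies the minus strand of chromosome 10, 128630843 to 128645991. It had 140 and 95 counts in WT, 154 in cKO 1 and 193 in cKO 2, the fewest of the members in each library except cKO 2, where *Ikzf5* had 184. These came to 21.4, 21.3, 29.3 and 41.0 CPM. Both cKO libraries were above both WT libraries, and the WT libraries were nearly equal. The fitted fold was 1.64 (95% interval 1.23 to 2.20), a log2 fold change of 0.72 with an SE of 0.19. The adjusted p was 0.0722 (unadjusted 0.00412) by the edgeR quasi-likelihood test with Benjamini-Hochberg adjustment, again just outside the threshold. The direction held with each library left out, with log2 fold changes from 0.46 to 0.94, and the call was gained without cKO 1 (adjusted p of 0.000847).

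*Ikzf5* encodes Pegasus, whose role in T cells is less well known. The gene (ENSMUSG00000040167.16) occupies the minus strand of chromosome 7, 131388652 to 131410521. *Ikzf5* was at 29.2 and 35.8 CPM in the WT libraries and at 36.8 and 39.1 CPM in the cKO libraries. The libraries of the genotypes did not overlap, but WT 2 and cKO 1 were close together. Its difference was 0.23 on the log2 scale (SE 0.15), and the adjusted p was 0.458 by the edgeR quasi-likelihood test with Benjamini-Hochberg adjustment. The opposite strand of 84.5% of its exonic bases (4835 of 5721) is covered by exons of *Pstk*, a selenocysteine pathway kinase, and of *Gm44624*. The strand setting of the counting is not given in the sources used here, so how far these counts come from *Ikzf5* alone is uncertain.

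**Figure D2:**
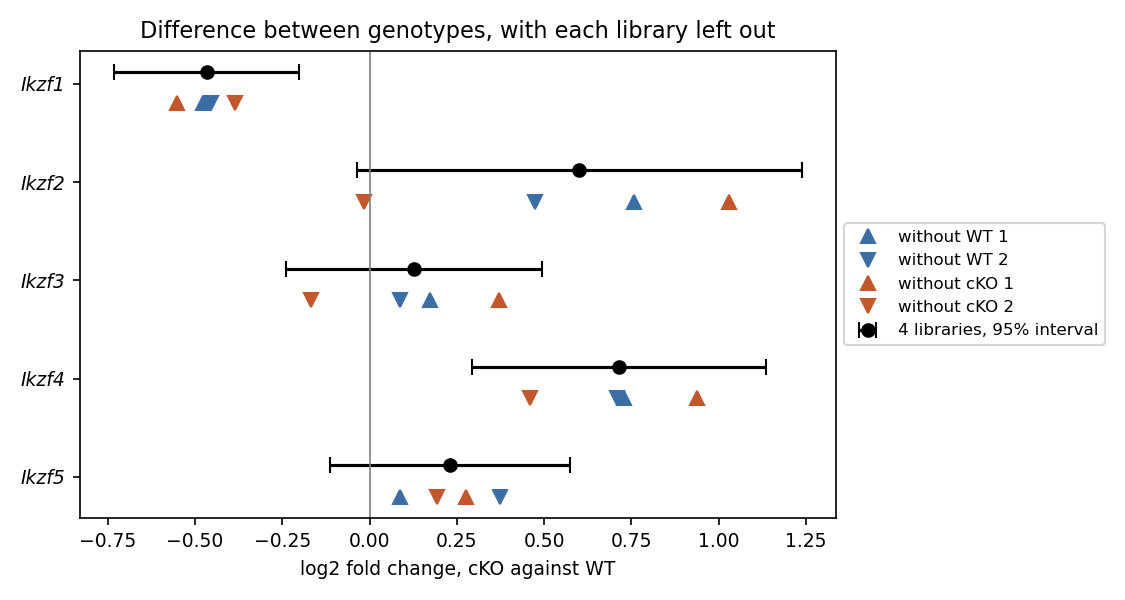
Log2 fold change of each member, cKO against WT, from the fit of 4 libraries (black point, bar for the 95% interval) and with each library left out in turn (triangles). *Ikzf2* and *Ikzf3* fall below 0 without cKO 2, while *Ikzf1* stays between −0.55 and −0.39 and *Ikzf4* between 0.46 and 0.94.

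Several members differed between the 2 cKO libraries, which also stood further apart than the WT libraries over all genes (chi-square per degree of freedom of 7.28 against 3.01). The cKO 2 library had 64.5% of its uniquely aligned reads outside annotated features, against 59.4% to 62.1% in the others, and 1.69% of counts from mitochondrial genes, against 2.07% to 2.40%. The part of these in the differences of the members was not tested. From cKO 1 to cKO 2, *Ikzf2*, *Ikzf3* and *Ikzf4* were higher beyond counting error (ratios of 2.07, 1.46 and 1.40), *Ikzf1* was lower (0.894, interval 0.857 to 0.933), and *Ikzf5* was within counting error (1.06, interval 0.864 to 1.31). *Foxp3*, the Treg-defining transcription factor, had a ratio of 1.35. Markers of other cells also differed between these libraries. The summed level of 10 activated or memory T cell markers was 1077 and 971 CPM in WT, 911 in cKO 1 and 1450 in cKO 2, and the gap between the cKO libraries came largely from 2 genes. *Itgb1*, an integrin chain of memory cells, was at 228 CPM in cKO 1 and 433 in cKO 2, and *Ahnak*, which encodes a large scaffold protein, was at 221 and 519 CPM. The other 8 markers summed to 467 and 425 CPM in WT, 462 in cKO 1 and 498 in cKO 2. B cells also express *Ikzf1* and *Ikzf3*, and the summed level of 15 B cell markers was 52.3 and 65.2 CPM in WT, 274.6 in cKO 1 and 102.5 in cKO 2. Of these markers 8 had enough reads to be tested, and 2 of the 8 rose (*Pax5* and *Cd74*). The B cell sum was highest in cKO 1. The summed level of 10 myeloid markers was 36.25 and 45.7 CPM in WT, 109.95 CPM in cKO 1 and 62.5 CPM in cKO 2, and 3 of the 9 tested rose (*Lyz2*, *Cybb* and *S100a9*), beside 2.35% of all tested genes. *Itgam* and *Cd68* had log2 fold changes of −0.85 and −0.29 and did not pass the test. No B cell or myeloid marker was at 0 in every library. Without WT 2 the calls of *Cd74* and *Cybb* were lost (adjusted p of 0.0738 and 0.112), and that of *Cybb* also without WT 1 (0.114). *Pax5* lost its call without WT 2 (0.138) and without cKO 1 (0.0919), and *S100a9* kept its call with each library left out. The part of these cells in the differences of the members was not tested. In bulk RNA, fewer cells of a type and less RNA per cell cannot be told apart.

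To compare members with each other, CPM was divided by the length of all annotated exonic sequence in kilobases (kb). On this scale *Ikzf1* was the main family transcript, at 211 ± 3.41 CPM per kb in WT (SD, n = 2) and at 161 and 144 CPM per kb in cKO 1 and cKO 2. *Ikzf3* followed at 43.0 ± 1.56 and 47.0 ± 12.4 CPM per kb. This order of the first and second gene held in all 4 libraries. The other members were far lower, with WT levels of 6.09 ± 0.811 CPM per kb for *Ikzf2*, 5.69 ± 0.820 for *Ikzf5* and 3.56 ± 0.015 for *Ikzf4*. *Ikzf2* and *Ikzf5* exchanged places between WT 1 and WT 2 and so did not differ in level beyond their spread. *Ikzf4* was last in WT 1, WT 2 and cKO 1. In cKO 2 it stood at 6.84 CPM per kb, level with *Ikzf5*.

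*Ikzf1* made up 77.8% and 78.8% of the summed family level in WT, 74.3% in cKO 1 and 63.7% in cKO 2. The share of *Ikzf3* was 16.5% and 15.5% in WT, 17.7% in cKO 1 and 24.7% in cKO 2. *Ikzf2* and *Ikzf4* together stayed small, with *Ikzf2* at 2.49%, 2.04%, 2.79% and 5.56% and *Ikzf4* at 1.33%, 1.31%, 2.26% and 3.03% in WT 1, WT 2, cKO 1 and cKO 2. For every member the shares of the genotypes did not overlap, lower in cKO for *Ikzf1* and higher for the rest. In CPM the genotypes overlapped for *Ikzf2* and *Ikzf3*, and 50.3% of all tested genes did not overlap. Shares add up to the whole, so a lower share of 1 member raises those of the others. The summed family level was 267.9 and 270.5 CPM per kb in WT and 216.7 and 226.0 in cKO, or 269 ± 1.85 against 221 ± 6.61 (SD, n = 2). For each of these quantities an exact two-sided permutation test gave p = 0.333, the smallest that 2 against 2 libraries allows.

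**Figure D3:**
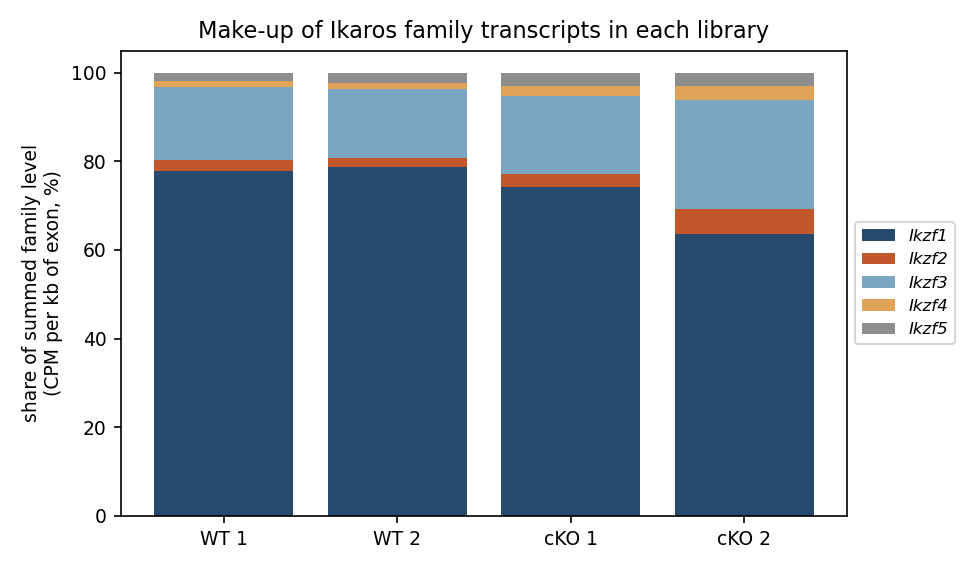
Share of each member in the summed family level of each library, in percent, where the level is CPM per kb of exonic sequence. *Ikzf1* takes 77.8% and 78.8% in the WT libraries and 74.3% and 63.7% in cKO 1 and cKO 2.

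Within the pool of *Ikzf1* and *Ikzf3* transcripts, counts of *Ikzf3* per count of *Ikzf1* were 0.321 and 0.298 in the WT libraries, 0.360 in cKO 1 and 0.587 in cKO 2. The exact 95% counting interval of cKO 1 (0.341 to 0.380) lay just above that of WT 1 (0.306 to 0.335). That of cKO 2 (0.557 to 0.618) lay far above both. The spread between the cKO libraries was wider than the gap between cKO 1 and WT. Counting intervals leave out the spread between libraries, and the exact permutation test gave p = 0.333.

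Helios and Eos are Treg factors, so their genes were set beside *Foxp3*. *Foxp3* rose in cKO, from 142 and 121 CPM in WT to 405 and 547 CPM, a log2 fold change of 1.86 with an adjusted p of 0.000447 by the edgeR quasi-likelihood test with Benjamini-Hochberg adjustment. The log2 fold changes of *Ikzf2* (0.60) and *Ikzf4* (0.72) were smaller, and the ratio of each to *Foxp3* was read in every library. Counts of *Ikzf2* per count of *Foxp3* were 0.546 and 0.532 in WT, 0.173 in cKO 1 and 0.267 in cKO 2. Counts of *Ikzf4* per count of *Foxp3* were 0.151 and 0.177 in WT and 0.0724 and 0.0750 in cKO. Both ratios were lower in both cKO libraries. This follows from the rise of *Foxp3*, the denominator, since a gene with no difference of its own would have 0.276 of its WT ratio by the fitted folds. *Ikzf2* had 0.419 and *Ikzf4* had 0.453, above that value and below 1. This restates fitted folds above 1 and below that of *Foxp3*. For *Ikzf2* this rested on cKO 2, without which its log2 fold change was −0.02. The exact permutation test of each ratio gave p = 0.333, and the counting intervals leave out the spread between libraries.

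**Figure D4:**
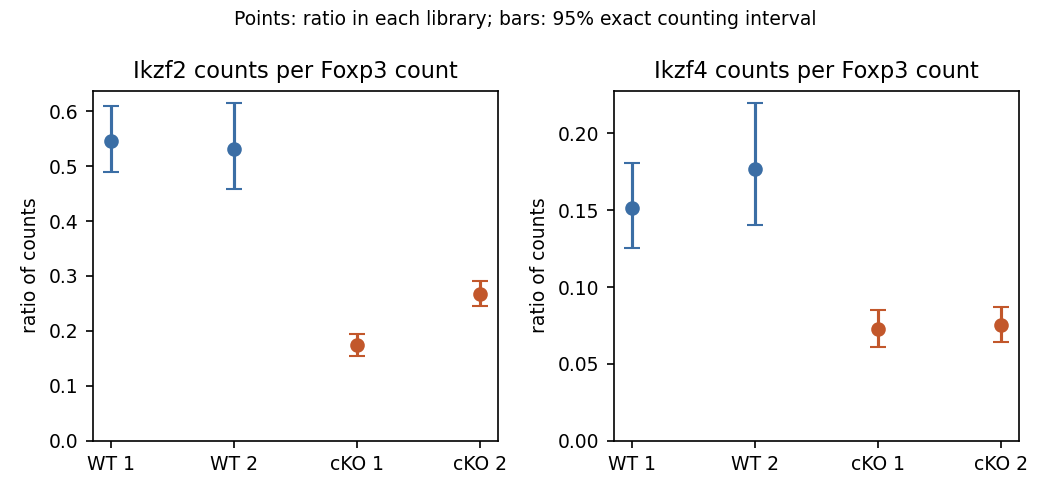
Counts of *Ikzf2* (left) and *Ikzf4* (right) per *Foxp3* count in each library, with bars for the exact 95% counting interval. The WT libraries lie at 0.546 and 0.532 for *Ikzf2* and at 0.151 and 0.177 for *Ikzf4*, above the cKO libraries in both panels, as the rise of *Foxp3* alone would also give.

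Across 17 Treg markers, 6 rose and 1 fell in cKO, with a median log2 fold change of 0.47 beside −0.0015 over all tested genes. The background was 2.35% of tested genes called higher and 1.95% called lower. Next to *Foxp3*, the genes that rose were *Cd83* (log2 fold change of 0.97), *Nrp1* (0.75), *Tnfrsf4* (0.75), *Tnfrsf18* (0.62) and *Ctla4* (0.58). *Itgae*, the CD103 integrin chain, fell by 0.92 on the log2 scale. Without WT 2, *Cd83*, *Nrp1*, *Tnfrsf4*, *Tnfrsf18*, *Ctla4* and *Itgae* lost the call, with adjusted p from 0.0805 to 0.401, and kept their direction, while *Foxp3* kept its call. *Nrp1* (0.0557), *Tnfrsf18* (0.165) and *Itgae* (0.0927) also lost it without WT 1. The summed level of the list was 1005 and 892 CPM in WT and 1506 and 1564 CPM in cKO. Without *Foxp3* it was 863 and 771 in WT and 1101 and 1017 in cKO. *Ikzf4*, with a log2 fold change of 0.72, thus lay among the Treg genes that rose, but did not itself pass the test. Of the naive T cell markers, 1 of 8 rose (*Il7r*) and 1 fell (*Ccr7*, a lymph node homing receptor, by 0.62 on the log2 scale, a call lost without WT 2 at an adjusted p of 0.262). Of 9 activated or memory markers tested, *S100a6* and *Tbx21* fell and none rose, while 6 had a log2 fold change above 0 and the median was 0.19. *Maf* (0.53, adjusted p of 0.0673) and *Il18r1* (0.45, adjusted p of 0.0613) were among those above 0 by the edgeR quasi-likelihood test with Benjamini-Hochberg adjustment.

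Ikaros and Aiolos recruit the NuRD complex, which joins a chromatin remodeler to histone deacetylases. All 14 of its genes were tested. One fell, none rose, and the median log2 fold change was −0.02. The gene that fell was *Rbbp7*, a histone chaperone subunit on the X chromosome, at 189 and 171 CPM in WT and 134 and 130 in cKO (log2 fold change of −0.45, adjusted p of 0.0435 by the edgeR quasi-likelihood test with Benjamini-Hochberg adjustment). That call was lost without WT 1 (adjusted p of 0.386) and without WT 2 (0.216). The remodeler subunits *Chd4* and *Chd3* had log2 fold changes of 0.14 and 0.01. The share of called genes among all the partner genes tested was 1 of 25 (4%), close to the 4.3% of all tested genes.

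No gene of the other partner groups passed the test. Of the CtBP and Sin3 corepressors, *Sin3a* had a log2 fold change of 0.21 (adjusted p of 0.276) and *Ctbp1*, the partner of Eos, one of −0.15 (adjusted p of 0.606) by the edgeR quasi-likelihood test with Benjamini-Hochberg adjustment. *Ctbp2* had too few reads to be tested. The cereblon ubiquitin ligase is the complex through which thalidomide analogs degrade Ikaros and Aiolos. Its 5 genes had a median of 0.01, with *Cul4b* at 0.26 and *Crbn*, the substrate receptor, at −0.16. Casein kinase 2 phosphorylates Ikaros and lowers its DNA binding. Its 3 genes had a median of 0.10, with *Csnk2b* at −0.15 and *Csnk2a2* at 0.10.

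**Figure D5:**
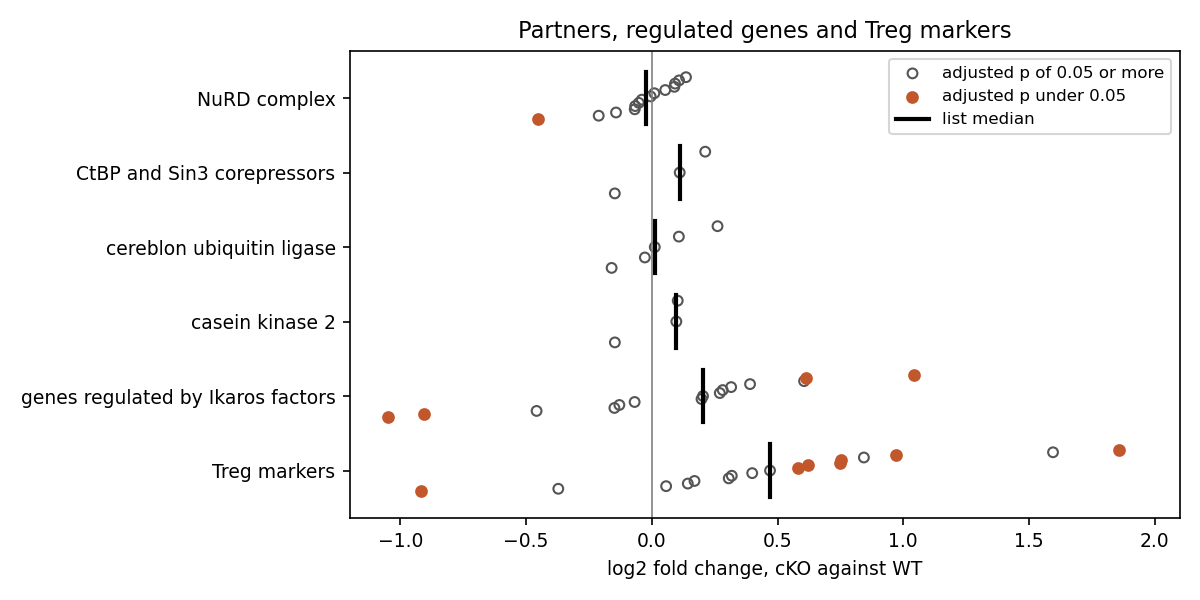
Log2 fold change, cKO against WT, of each tested gene of the partner lists, the genes regulated by Ikaros factors and the Treg markers, with filled points for an adjusted p under 0.05 and a bar for the list median. The partner lists center near 0, with medians from −0.02 to 0.11, and the Treg markers have a median of 0.47.

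Of 23 genes known to be regulated by Ikaros factors, 15 had enough reads to be tested, and 2 rose and 2 fell. That is 26.7% of those tested, beside 4.3% of all tested genes, and the median log2 fold change was 0.20 beside −0.0015 over all tested genes. The list was chosen with earlier results known, so the share is a description. *Il7r*, the IL-7 receptor chain and a direct Ikaros target in lymphocytes, rose from 365 and 486 CPM in WT to 1052 and 697 in cKO, a log2 fold change of 1.04 with an adjusted p of 0.0257 by the edgeR quasi-likelihood test with Benjamini-Hochberg adjustment. *Bcl6*, the repressor that directs follicular helper T cells, rose from 33.5 and 31.4 CPM to 48.4 and 51.0 (log2 fold change of 0.61, adjusted p of 0.0361). *Cd8b1*, a CD8 coreceptor chain with an Ikaros-bound locus, fell from 42.4 and 52.0 CPM to 27.4 and 22.5 (log2 fold change of −0.91, adjusted p of 0.0201). *Cd8a*, the other CD8 chain, had 35 and 29 counts in WT and 36 and 20 in cKO (log2 fold change of −0.07, adjusted p of 0.941). *Tbx21*, which encodes the T helper 1 factor T-bet and is repressed by Ikaros, fell from 26.8 and 21.1 CPM to 9.15 and 14.2 (log2 fold change of −1.05, adjusted p of 0.0494). *Eomes*, a related T-box gene of NK and effector cells, fell alongside it, from 39.8 and 32.3 CPM to 11.1 and 17.0 (log2 fold change of −1.38, adjusted p of 0.0113). It was 1 of 4 NK cell markers, of which 2 were tested. The other tested marker, *Klrb1c*, had a log2 fold change of −1.07 (adjusted p of 0.437). *Klra8* was at 0 in every library, and *Ncr1* had at most 3 counts. The sum of the list was 43.7 and 33.8 CPM in WT and 13.7 and 17.4 in cKO, most of it *Eomes*. The part of NK cells in the fall of *Tbx21* was not tested.

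These calls went in both directions, with adjusted p from 0.0201 to 0.0494. Without WT 2, *Il7r* kept its call, whereas *Bcl6* (adjusted p of 0.324), *Cd8b1* (0.156) and *Tbx21* (0.0932) lost it, and *Bcl6* (0.0837) and *Tbx21* (0.158) also lost it without WT 1. Among the regulated genes that did not pass, *Notch1* had a log2 fold change of 0.32 and its target *Dtx1* one of 0.28, while *Myc* had one of −0.46. The 8 untested genes included the early lymphoid genes *Ptcra* and *Igll1*, at no more than 1 count in any library, and the cytokine genes *Ifng* and *Il2*, at no more than 13 and 15 counts. By DESeq2, 1 of the 5 called partner and regulated genes, *Cd8b1*, kept its call, and the number called ranged from 1 to 8 with each library left out.

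Genes around each member, within 250 kb on either side, were read in the same fit. Around *Ikzf1*, 4 neighbors were tested, and for all 4 both cKO libraries were below both WT libraries (25.4% of all tested genes). The median log2 fold change of the 4 was −0.88. *Gm11998*, 105.5 kb away on the same strand, fell, with 40 and 24 counts in WT and 2 and 5 in cKO (log2 fold change of −2.99 with an SE of 0.50, adjusted p of 0.0134 by the edgeR quasi-likelihood test with Benjamini-Hochberg adjustment). *Gm12000*, which lies inside the *Ikzf1* gene on the other strand, had 23 and 26 counts in WT and 15 and 9 in cKO (adjusted p of 0.292). *Fignl1*, a DNA repair ATPase gene 14.5 kb away, had 52 and 42 counts in WT and 14 and 33 in cKO (adjusted p of 0.306). *Zpbp*, 222.6 kb away, had a log2 fold change of −0.70. The 4 have at most 52 counts in any library, so each value is imprecise, and 3 of them did not pass the test. The call of *Gm11998* was lost without WT 2 (adjusted p of 0.0587).

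The other members had neighbors without such a pattern. None of the 14 tested around *Ikzf3* was called, their median was −0.05, and *Zpbp2*, the nearest, was at −0.22. Around *Ikzf4*, 1 of 26 passed, the melanosome gene *Pmel* at 58.2 kb, which fell by 0.54 on the log2 scale, and the median was −0.07. That call was lost without WT 1 (adjusted p of 0.0706) and without WT 2 (0.416). Its nearest neighbor *Rps26*, a ribosomal protein gene, had a log2 fold change of −0.35, opposite in sign to *Ikzf4*. For *Ikzf2* the 1 tested neighbor, *Gm29114*, overlaps the gene on the opposite strand and had 21 and 8 counts in WT and 10 and 31 in cKO. It was highest in cKO 2, as was *Ikzf2*. The overlap covers 1.24% of the exonic bases of *Ikzf2*, and its part in the *Ikzf2* counts was not tested. For *Ikzf5* none of 5 was called, and *Pstk*, which overlaps it, had a log2 fold change of 0.31 (adjusted p of 0.224 by the edgeR quasi-likelihood test with Benjamini-Hochberg adjustment).

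Patterns over the 4 libraries were compared by the root mean square difference of log2 CPM, centered on the mean of each gene, among 72 tested genes of the partner, regulated, Treg, naive and activated lists. The genes nearest to *Ikzf1* were *Capg* (0.059) and *Rbbp7* (0.074). *Capg*, an actin-capping gene counted among the Treg markers, had a log2 fold change of −0.37. Nearest to *Ikzf2* were *Itgb1* (0.148) and *Klrg1* (0.215), both highest in cKO 2, and nearest to *Ikzf3* were *Cd44* (0.084) and *Csnk2a1* (0.096). *Ikzf4* was nearest to *Bcl6* (0.151) and *Tnfrsf4* (0.175), and *Ikzf5* to *Cdkn1b* (0.082) and *Il10* (0.097). With 4 libraries this is a description of likeness, and genes with little variation come out close to each other.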

How the data were processed

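RNA-seq was analysed from 4 mouse libraries, 2 WT and 2 labelled *Satb1* cKO, with genotype and replicate number taken from the labels. Reads of 50 bases from a NEBNext Ultra RNA kit were aligned by the authors to mm10 with HISAT2 2.1.0 and counted per gene with HTSeq 0.11.1, per the submitters' processing notes, and the raw counts were deposited without scaling. The annotation and strand setting of the counting are not given in the sources used here. Summary lines of the counting program were left out.

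Counts were kept by filterByExpr, scaled by TMM and tested with the quasi-likelihood F test of edgeR 4.0.16 in R 4.3.3, two-sided, with no covariate and Benjamini-Hochberg adjustment over 12403 genes. Calls were made below an adjusted p of 0.05. Alternatives were DESeq2 1.42.0, the edgeR exact test, other scalings, filters and thresholds, thinning, a replicate block and leaving out each library. Simulated data with known changes were used to test the fit, and without a true change 2 of 12181 genes were called. Counting intervals are at 95%, cover counting error only, and treat reads as independent molecules, which cannot be known without molecular identifiers. The p-values of the fit set the difference between genotypes against the spread between libraries of a genotype, moderated over all genes.

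Positions, exon lengths and sequences came from GENCODE M21 (GRCm38). The members and gene lists were chosen with earlier results of these data known. The genes named were the members, *Satb1* and *Foxp3*, called genes of the partner and regulated lists (or the 2 with the largest fold change where none was called), up to 6 called markers per T cell list, up to 3 markers per other cell list by mean CPM, called and nearest neighbors, and the 2 nearest genes by pattern. *Chd3*, *Chd4*, *Notch1*, *Dtx1*, *Myc*, *Ctla4*, *Ahnak*, *Maf*, *Il18r1*, *Itgam*, *Cd68*, *Pax5*, *S100a9* and the neighbors *Gm12000*, *Fignl1*, *Zpbp* and *Pstk* were added after their values were seen.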

Additional observations from a re-analysis of the deposited data

How the results depend on the processing

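The number of called genes, 533 by the edgeR quasi-likelihood test (291 higher and 242 lower), was 1367 without the low-count filter (683 and 684), 1036 by the exact test (533 and 503), 153 at an adjusted p under 0.01 (83 and 70) and 965 under 0.1 (502 and 463). With 1 library left out it ranged from 180 to 1790 (94 to 963 higher, 86 to 827 lower), where the lone library of a genotype was assumed to vary like the others. Replicate numbers did not pair the libraries (correlation of deviations 0.0642). With the replicate number as a block, 1165 genes were called (596 and 569), among them *Ikzf1* (log2 fold change −0.47) and *Ikzf4* (0.69).

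The number of members called was 0 in the main fit, where 533 genes were called in all. It was 1 with total counts as library sizes (544 genes called in all), 1 by DESeq2 (398) and 3 without the filter (1367). It was 2 by the exact test (1036), with the block (1165) and at an adjusted p under 0.1 (965). *Ikzf1* passed in 7 of 12 alternatives fitted at 0.05 (adjusted p from 0.000152 to 0.510), with −0.47 for total counts, without the filter and by the exact test, −0.46 by DESeq2, and −0.55 to −0.39 with 1 library left out. *Ikzf2* passed in 2, with 0.60 without the filter and −0.0155 to 1.03 with 1 library left out. *Ikzf3* passed in 1, with −0.17 to 0.37. *Ikzf4* passed in 4, with 0.71 without the filter, 0.72 by the exact test and at an adjusted p under 0.1, and 0.46 to 0.94 with 1 library left out. *Ikzf5* passed in none, with 0.09 to 0.37. The partner and regulated genes called, 5, were 1 by DESeq2, 0 at an adjusted p under 0.01 and 1 to 8 with 1 library left out. The cause of these moves was not tested.

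Of 551 refits of the other named genes, 482 kept direction and call, 34 lost the call, 21 gained it and 14 reversed. Values on both sides of 0 came with 1 library left out for *Satb1* (−0.13 to 0.0415), *Ctbp1* (−0.35 to 0.0343), *Cd4* (−0.11 to 0.00926), *Cd8a* (−0.46 to 0.23), *Gm29114* (−0.44 to 1.33), *Itgb1* (−0.22 to 0.71), *Klrg1* (−0.27 to 0.52), *Cd44* (−0.20 to 0.18) and *Csnk2a1* (−0.0436 to 0.23), and *Cd44* also reversed without the filter (−0.0020) and with the block (−0.0069). Divided by the longest transcript in place of all exons, the *Ikzf1* share was 70.1% in WT and 59.7% in cKO. At 95 to 193 counts, *Ikzf4* and *Ikzf5* were the members most limited by depth.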
